A study of Mus musculus with 24 samples.

Results

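Inguinal white adipose tissue of mice lacking LPCAT3 (KO) was set against that of wild-type mice (WT), all fed a high-fat diet enriched in omega-3 fat (n3). All 8 libraries that the labels place on this diet were used, 4 KO and 4 WT, of 24 libraries in the series, and are numbered here KO1 to KO4 and WT1 to WT4. The mice were males of 18 to 22 weeks, and fat gave 60% of the calories. The other libraries came from KO and WT mice on diets of the same fat content enriched in saturated fat (SFA) or in omega-6 fat (n6), with 4 libraries in each group, and served for the comparison between diets. The submitters call the knockout AdL3KO, and the promoter or Cre line behind it is not given in the sources used here. The series title speaks of mature adipocytes, whereas the protocols describe no isolation of cells, so the libraries were read as whole tissue. In bulk tissue, fewer cells of a type and less RNA per cell cannot be told apart. The labels do not say whether each library came from a separate animal, so p-values measure the spread between these libraries.

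LPCAT3 is a lysophospholipid acyltransferase of the endoplasmic reticulum that places polyunsaturated fatty acids on lysophospholipids, above all to form phosphatidylcholine and phosphatidylethanolamine. Its products keep membranes fluid. In liver and gut it is a target of the sterol-sensing receptor LXR. Membrane sterols and polyunsaturated fatty acids also act on SREBP, the transcription factor family that drives the genes of fatty acid and cholesterol synthesis. Adipose tissue uses fatty acid synthesis to fill its lipid droplets, and dietary omega-3 fatty acids are known to lower SREBP-1 activity in liver.

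The n3 libraries held 46.0 to 48.8 M estimated counts in KO and 49.1 to 62.1 M in WT. The 10 most abundant genes took 16 to 17.4% of counts in KO libraries and 11.1 to 11.6% in WT libraries, and mitochondrially encoded genes took 5.91 to 7% in KO libraries and 4.26 to 4.77% in WT libraries. The part of these shares in the gene results was not tested. The adipocyte markers Adipoq and Fabp4 were abundant in all 8 libraries, at 1364 to 2059 and 10532 to 16018 CPM (counts scaled to library size). Of 12 adipocyte markers, 7 were higher and 2 lower in KO, against 20.1% and 18.7% of all genes, so the lower count was near that share. Their median log2 fold change was 0.22, although it was -0.01 on TPM without rescaling. Skeletal muscle and B cell markers were low in both groups: 12 muscle markers summed to 63.3 to 77.4 CPM in KO and 59.0 to 85.2 CPM in WT, and 10 B cell markers to 7.76 to 10.7 CPM in KO and 9.11 to 10.1 CPM in WT.

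The targeted gene, Lpcat3 (ENSMUSG00000004270, chr6:124663027-124704418 on mm10, plus strand), was lower in every KO library. It had 58.9, 53.7, 61.3 and 59.0 CPM in KO1 to KO4, against 114, 113, 119 and 112 CPM in WT1 to WT4. The groups did not overlap. The fall was 0.97 on the log2 scale (log2 fold change -0.97, SE 0.061, adjusted p = 4.71e-11), and it was larger on n3 than the mean fall on SFA and n6 by a log2 difference of -0.41 (SE 0.074, adjusted p = 0.00489). On SFA Lpcat3 changed by -0.63 and on n6 by -0.51. The deposited TPM (transcript abundances scaled to library size), which also adjust for transcript length, gave a smaller difference: 82.6, 68.3, 81.8 and 87.8 TPM in KO against 102, 99.3, 110 and 99.0 TPM in WT. By limma on log2(TPM + 1) this was a difference of -0.35 (adjusted p = 0.000525), and one of -0.14 that was not called (adjusted p = 0.167) once the TPM were rescaled by TMM factors. The level left in KO tissue is a gene total, and the deleted exons cannot be read from it.

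Deletion of LPCAT3 on n3 went with a broad change of the transcriptome. By edgeR's quasi-likelihood test with Benjamini-Hochberg adjustment, 5924 of 15259 genes (38.8%) passed an adjusted p of 0.05. Of these, 3065 were higher (20.1%) and 2859 lower (18.7%) in KO, and 347 differed at least 2-fold. The median log2 fold change over all genes was -0.03. In 4997 genes (32.7%) the CPM of the 2 groups did not overlap. On TPM without rescaling the median gene stood at -0.19, and 919 genes were called higher and 7504 lower. With TMM-rescaled TPM the calls were 2426 higher and 2394 lower. Changes below are therefore relative to the TMM scale, on which the median gene barely moves.

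**Figure D1:**
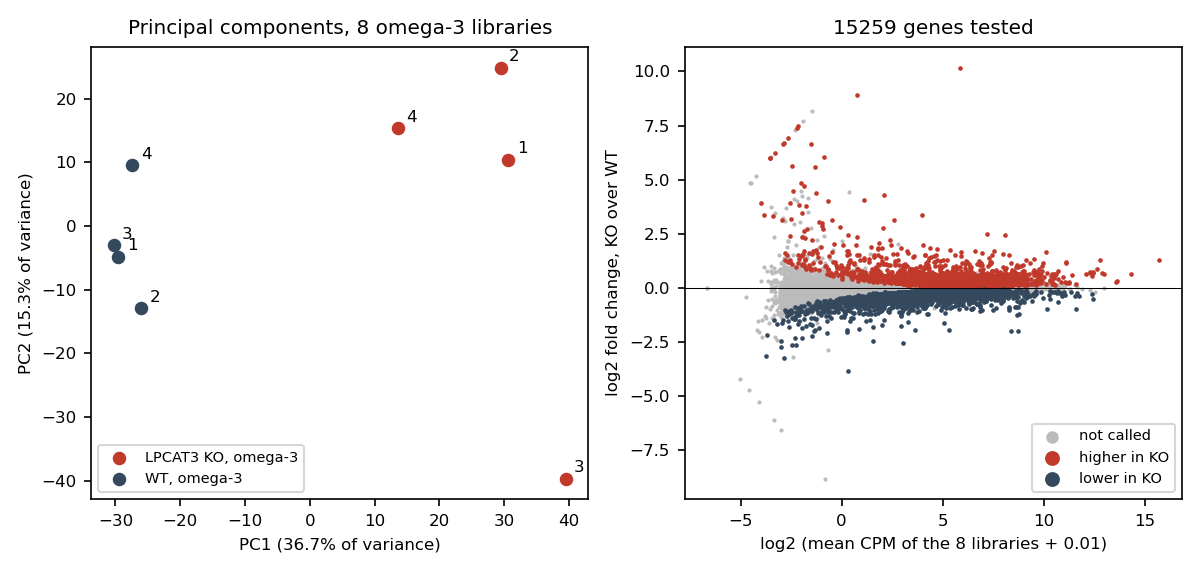
Left, the first 2 principal components of log2 CPM in the 8 n3 libraries, with the share of variance on each axis; right, log2 fold change of KO over WT against log2 mean CPM, 1 point per tested gene, with called genes coloured. The KO libraries lie at 13.7 to 39.5 on PC1 and the WT libraries at -30.3 to -26.1, with KO4 nearest to WT and KO3 apart from the rest on PC2.

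The first principal component took 36.7% of the variance and separated the genotypes. The KO libraries spread more widely than the WT libraries: KO4 lay at 13.7 on PC1, nearest to WT, and KO3 at -39.7 on PC2. Without KO4 the test called 6629 genes, and without KO3 it called 4756.

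The genes with the largest rises came from many families. Tmem56 (transmembrane protein 56) had 28.4, 34.5, 25.8 and 26.4 CPM in KO libraries, against 4.93, 1.66, 1.98 and 2.70 CPM in WT libraries. Podnl1, a small leucine-rich matrix protein, had 13, 8.93, 7.74 and 13.6 CPM in KO against 1.5, 1.16, 1.25 and 0.912 CPM in WT. Nabp1, a single-stranded DNA binding protein, had 418, 408, 562 and 430 CPM in KO against 77.5, 88.2, 89.9 and 74.7 CPM in WT. Groups without overlap were a condition for a place among these rises. The log2 fold changes of Tmem56, Podnl1 and Nabp1 were 3.36 (SE 0.29, adjusted p = 2.98e-08), 3.16 (SE 0.26, adjusted p = 7.83e-09) and 2.46 (SE 0.20, adjusted p = 7.59e-09). The other genes among the 15 largest rises were Chodl, Prune2, Hapln4, Mup19, Hebp2, Mup11, Xirp2, Egln3, Spry3, Gsta4, Hephl1 and Chchd10, with log2 fold changes of 1.72 to 2.75. Gsta4 is a glutathione transferase that clears 4-hydroxynonenal, an aldehyde from the peroxidation of omega-6 fatty acids, and Egln3 is an oxygen-sensing prolyl hydroxylase. Gsta4 had 50.3, 43.5, 40.0 and 27.3 CPM in KO against 7.25, 18.4, 13.4 and 7.09 CPM in WT. Mup19 and Mup11 encode major urinary proteins, a family of near-identical copies among which reads can be split, so their values are uncertain.

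The largest falls included secreted and immune genes. Saa3, an acute phase protein made by adipocytes and macrophages, had 2.45, 2.23, 2.00 and 2.84 CPM in KO libraries, against 12.1, 18.4, 13.1 and 12.6 CPM in WT libraries. Cfd, which encodes the adipocyte-secreted complement protease adipsin, had 131, 182, 199 and 170 CPM in KO against 642, 847, 614 and 611 CPM in WT. Nnat, a small membrane protein, had 121, 152, 151 and 98.1 CPM in KO against 427, 586, 522 and 572 CPM in WT. Groups without overlap were a condition for a place among these falls too. Saa3 fell by 2.56 (SE 0.23, adjusted p = 3.24e-08), Cfd by 1.99 (SE 0.23, adjusted p = 8.64e-07) and Nnat by 2.01 (SE 0.35, adjusted p = 0.000159) on the log2 scale. The falls of Saa3 and Cfd were smaller on n3 than on the other diets, by 1.54 (adjusted p = 0.00755) and 1.02 (adjusted p = 0.0312). The difference for Cfd lost its call without KO2, KO3, WT1, WT3 or WT4, with adjusted p of 0.0665 to 0.0842. The other genes among the 15 largest falls included Cux2, Itgad, Cacna1e, Gabrr2, Folh1, Comp, St6galnac5, Cyp2f2, Adamtsl2, Plppr3 and Endou, with log2 fold changes of -2.44 to -1.30. Folh1 cleaves glutamate from folates, and Comp is a matrix protein of cartilage and fibrous tissue.

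Fatty acid synthesis genes rose together. Of 18 genes, 15 were higher and 1, the desaturase gene Fads1, was lower, against 20.1% and 18.7% of all genes. Their median log2 fold change was 1.15. Fasn, the fatty acid synthase, had 9415, 9750, 9893 and 10341 CPM in KO libraries, against 4044, 4233, 4060 and 3668 CPM in WT libraries. Acaca, the acetyl-CoA carboxylase that makes its substrate, had 1084, 1029, 969 and 1063 CPM in KO against 433, 420, 400 and 405 CPM in WT. The groups were far apart in both, with log2 fold changes of 1.30 for Fasn (SE 0.073, adjusted p = 1.04e-11) and 1.32 for Acaca (SE 0.069, adjusted p = 5.42e-12). Scd1, the stearoyl-CoA desaturase that makes oleate, was the most abundant gene of the list, at 76440 ± 4674 CPM in KO and 31412 ± 1878 CPM in WT (SD, n = 4 each). The gene for SREBP-1 itself, Srebf1, rose less, with 362 ± 12.7 CPM in KO and 261 ± 12.3 CPM in WT (log2 fold change 0.47, adjusted p = 1.15e-05).

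**Figure D2:**
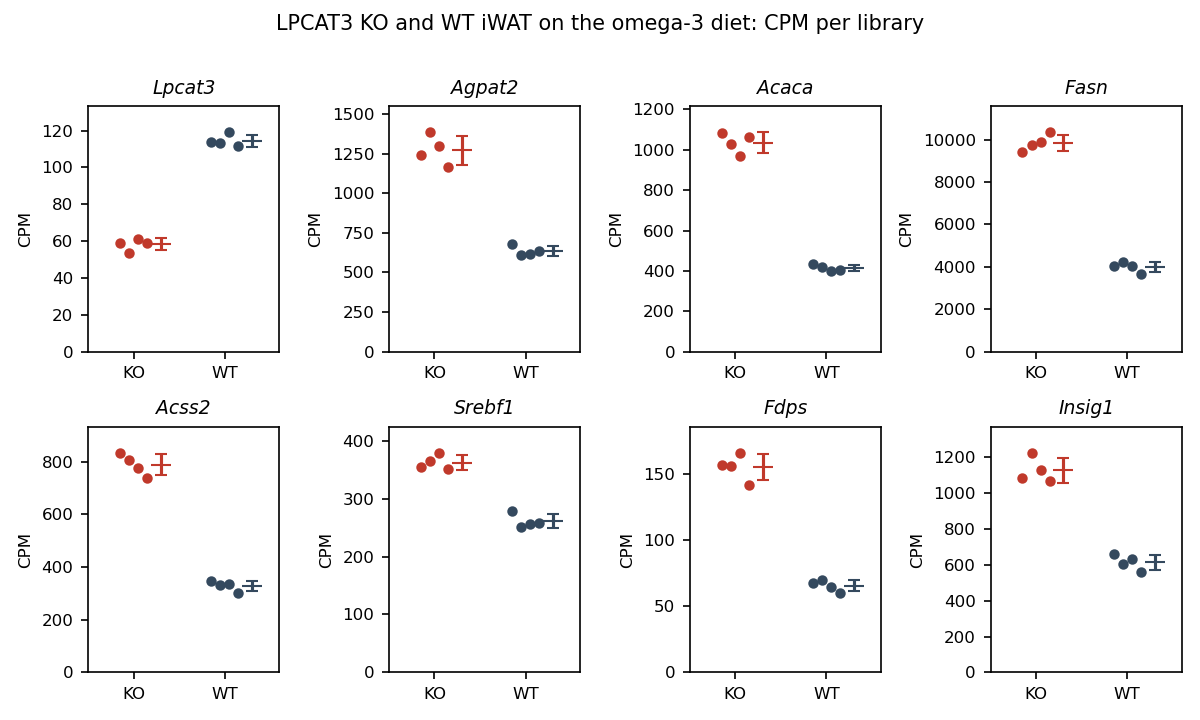
CPM in each of the 4 KO and 4 WT libraries on the n3 diet for Lpcat3, Agpat2 and 6 genes of fatty acid and sterol synthesis, 1 point per library, with the mean and SD as bars. Lpcat3 is lower in all KO libraries and the other 7 genes are higher in all KO libraries, with no overlap.

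The rise in fatty acid synthesis genes was smaller on n3 than the mean rise on the other diets for 8 of the 18. The list's median log2 fold change was 1.15 on n3, 1.31 on SFA and 1.63 on n6. The difference between n3 and the mean of the other diets was called for 959 genes (6.28%), with 425 more positive (2.79%) and 534 more negative (3.5%) on n3. In this list it was more negative for Acly, Acacb, Fasn, Scd2, Elovl6, Me1, Slc25a1 and Acss2, and more positive for none by edgeR (1 at an unadjusted p under 0.05, and 1 by DESeq2). Acss2, which makes acetyl-CoA from acetate, had 832, 805, 776 and 739 CPM in KO against 346, 330, 334 and 302 CPM in WT. Its log2 fold change of 1.26 on n3 stood beside 1.43 on SFA and 2.37 on n6, a difference of -0.64 (SE 0.097, adjusted p = 0.00212). Acacb, the carboxylase isoform at mitochondria, differed by -0.48 (adjusted p = 0.00921) and Me1, the malic enzyme that supplies NADPH, by -0.44 (adjusted p = 0.00664). For Scd1 the difference was -0.04 (SE 0.094, adjusted p = 0.849). The calls for Fasn (-0.31, adjusted p = 0.0399) and Acly (-0.29, adjusted p = 0.0287) were lost without KO1, KO2, WT1 or WT3, and that for Fasn also without KO3 or WT2, with adjusted p of 0.0539 to 0.092.

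Cholesterol synthesis genes rose as a group too. Of 21 genes, 18 were higher and none lower, against 20.1% and 18.7% of all genes, with a median of 0.75. On n3, 7 rose less than their mean rise on the other diets. The count of lower genes was also 0 by edgeR at an unadjusted p under 0.05 and by DESeq2. These 7 were 4 without WT1 or without WT3. Fdps, which makes farnesyl pyrophosphate, had 157, 156, 166 and 142 CPM in KO libraries, against 67.4, 70.0, 64.7 and 60.4 CPM in WT libraries. Lss, which closes the sterol ring, had 224, 213, 232 and 212 CPM in KO against 107, 108, 107 and 90.3 CPM in WT. Neither gene's groups overlapped, and the log2 fold changes were 1.24 (SE 0.065) and 1.09 (SE 0.074). The difference from the other diets was -0.36 for Fdps (adjusted p = 0.0121), -0.50 for Lss (adjusted p = 0.00432) and -0.38 for Nsdhl, a sterol dehydrogenase (adjusted p = 0.00909). Hmgcs1, the first dedicated enzyme of the mevalonate route, rose by 0.63 on n3 (adjusted p = 8.81e-08), with a difference of -0.05 (adjusted p = 0.768).

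The promoters of these genes were read for 2 motifs, because SREBP acts on them with the factor NF-Y. The letters TCACNCCAC stand for a sterol regulatory element and CCAAT for the NF-Y site, both searched on either strand in the 250 bases before the start. RefSeq promoters (GRCm38.p6) were found for 16 of the 21 genes. TCACNCCAC was present in 1 of the 16, or 6.25%, against 1.05% of 32851 mouse promoters, and CCAAT in 15, or 93.8%, against 33.8%. The share for a gene with several promoters counts a match in any, and over the 19 promoters CCAAT was in 78.9%. The promoter of Hmgcs1 (chr13:119690101-119690350, plus strand), the gene with the TCACNCCAC match, is shown with that of Acat2 (chr17:12960726-12960975, minus strand, printed in the gene's direction), the gene with the smallest p among the 16, in which neither motif was found. Capitals mark TCACNCCAC or CCAAT on either strand.
Hmgcs1: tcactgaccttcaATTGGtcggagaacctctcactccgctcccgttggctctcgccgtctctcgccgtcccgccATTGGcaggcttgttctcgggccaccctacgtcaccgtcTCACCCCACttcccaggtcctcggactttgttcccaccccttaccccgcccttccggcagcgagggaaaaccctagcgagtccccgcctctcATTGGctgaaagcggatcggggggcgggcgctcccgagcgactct
Acat2: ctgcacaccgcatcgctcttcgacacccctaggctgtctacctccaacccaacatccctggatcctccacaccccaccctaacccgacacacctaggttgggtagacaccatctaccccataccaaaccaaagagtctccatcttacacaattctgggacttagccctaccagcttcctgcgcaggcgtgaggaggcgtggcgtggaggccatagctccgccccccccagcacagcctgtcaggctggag
The 3 CCAAT matches in Hmgcs1 read ATTGG on the printed strand, and their first bases lie 237, 176 and 45 bases before the start. The TCACCCCAC match begins 137 bases before the start and overlaps none of them. Hmgcs1 had 1130, 1150, 1032 and 987 CPM in KO against 751, 694, 709 and 630 CPM in WT. Acat2, which makes acetoacetyl-CoA, had 240, 222, 231 and 212 CPM in KO against 102, 95.5, 102 and 95.8 CPM in WT, a log2 fold change of 1.20 (SE 0.068, adjusted p = 1.14e-11). Both genes were thus higher in every KO library, with and without a match.

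Among sterol sensing and uptake genes, more were higher than lower. Of 15 genes, 7 were higher and 3 lower, against 20.1% and 18.7% of all genes, so the lower count was near the share of all genes. Insig1, the sterol-regulated anchor that holds SREBP in the endoplasmic reticulum, had 1084, 1222, 1128 and 1068 CPM in KO libraries, against 658, 604, 632 and 558 CPM in WT libraries. It rose by 0.88 (SE 0.085, adjusted p = 4.25e-08) on n3, beside 1.01 on SFA and 1.80 on n6. The difference from the mean of those diets was -0.53 (adjusted p = 0.00746). The lysosomal cholesterol carrier Npc2 rose by 0.57. Mylip, a ubiquitin ligase of sterol uptake, fell by 0.25 on n3 (adjusted p = 0.0284) but had log2 fold changes of 0.26 on SFA and 0.34 on n6, a difference of -0.55 (SE 0.11, adjusted p = 0.00746). Its fall on n3 lost its call without KO1, KO2, WT1 or WT4, with adjusted p of 0.0567 to 0.104. Soat1, which esterifies cholesterol, fell by 0.52.

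Among 14 lysophospholipid acyltransferases, 6 were higher and 5 lower in KO, against 20.1% and 18.7% of all genes. The 5 lower included Lpcat3, the targeted gene, which was called whichever n3 library was left out. The number lower fell to 1 without KO2, to 2 without KO1, and to 3 without KO3, WT3 or WT4. Agpat2, which makes phosphatidic acid for triglyceride in adipocytes, had 1241, 1383, 1297 and 1166 CPM in KO libraries, against 680, 612, 618 and 638 CPM in WT libraries. It rose by 1.00 (SE 0.076, adjusted p = 1.04e-09), less than on the other diets by -0.38 (adjusted p = 0.018). Its relatives Agpat1 and Agpat3 rose by 0.30 and 0.26. On TPM without rescaling the means in KO and WT were 1579 and 925 for Agpat2, 62.21 and 59.25 for Agpat1, and 138.5 and 136.3 for Agpat3. For Mboat7, Lclat1 and Agpat5, also counted higher, they were 17.85 and 17.88, 22.77 and 26.38, and 13.68 and 14.34. Lpcat1, Lpcat2 and Lpcat4, the other named phosphatidylcholine acyltransferases, gave -0.18, -0.56 and -0.35, with adjusted p of 0.034, 0.0162 and 0.0291, and each lost its call without some single library. Those libraries were KO2, KO3, WT1 or WT4 for Lpcat1, KO1 or KO2 for Lpcat2, and KO1, KO2, KO3, WT3 or WT4 for Lpcat4, with adjusted p of 0.0519 to 0.12. Mboat2 had a log2 fold change of -0.29 on n3 (adjusted p = 0.086), beside 0.39 on SFA and 0.34 on n6, a difference of -0.65 (SE 0.16, adjusted p = 0.0194) that lost its call without KO1, KO2, KO3 or WT3, with adjusted p of 0.0512 to 0.0561.

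Genes of triglyceride storage and fatty acid handling rose by smaller amounts. Of 16 triglyceride synthesis genes 11 were higher and none lower, with a median of 0.29, and of 15 lipid droplet genes 8 were higher and 1 lower, also with a median of 0.29. Of all genes, 20.1% were higher and 18.7% lower. Triglyceride genes counted lower were 1 by edgeR at an unadjusted p under 0.05 and 0 by DESeq2. On TPM without rescaling these medians were 0.05 and 0.03. Dgat1, which adds the last fatty acid of triglyceride, had 246 ± 18.1 CPM in KO and 162 ± 2.75 CPM in WT (SD, n = 4 each), and the droplet coat gene Plin2 had 1205 ± 92.8 CPM in KO and 708 ± 37.6 CPM in WT. Acsl3, which activates fatty acids at the droplet, had 69.4, 74.2, 64.8 and 79.0 CPM in KO against 28.6, 22.7, 24.8 and 23.3 CPM in WT. Its log2 fold change of 1.53 (SE 0.082, adjusted p = 8.34e-12) was smaller than on the other diets by -0.54 (adjusted p = 0.00517).

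Oxidation genes rose with the synthesis genes, in lists set here against 20.1% of all genes higher and 18.7% lower. Of 27 genes of peroxisomal beta-oxidation and peroxisome assembly, the organelle that shortens very long chain and omega-3 fatty acids, 24 were higher and 1 was lower, with a median of 0.34. Abcd3, a fatty acid transporter of the peroxisomal membrane, had 207, 214, 217 and 193 CPM in KO libraries, against 139, 142, 136 and 137 CPM in WT libraries (log2 fold change 0.59, SE 0.047, adjusted p = 2.59e-09). The groups did not overlap, and the import gene Pex13 rose by 0.60. In mitochondria, 19 of 22 beta-oxidation genes were higher and none lower (median 0.46), and 21 of 23 tricarboxylic acid cycle genes were higher and 1, Idh2, was lower (median 0.46). Hadha, of the trifunctional protein, rose by 0.62, Acadvl, the very long chain dehydrogenase, by 0.67, and Cs, the citrate synthase, by 0.75. Of 11 pentose phosphate and NADPH genes 9 were higher and none lower, with rises of 0.78 for G6pdx and 0.60 for Pgd. Neither edgeR at an unadjusted p under 0.05 nor DESeq2 gave a lower gene on n3 among the mitochondrial beta-oxidation and the pentose phosphate genes. In the mitochondrial beta-oxidation and cycle lists edgeR and DESeq2 called no difference between n3 and the other diets, with 2 and 5 genes at an unadjusted p under 0.05 by edgeR.

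Most thermogenic genes were higher in KO, and 4, Ucp1 among them, did not pass the test. Of 18 genes, 14 were higher and none lower, against 20.1% and 18.7% of all genes. Their median was 0.75, and none was lower by edgeR at an unadjusted p under 0.05 or by DESeq2. Cox8b, a cytochrome oxidase subunit of brown fat, had 25, 27.7, 30.5 and 20.7 CPM in KO libraries, against 7.71, 8.42, 10.3 and 9.98 CPM in WT libraries, a log2 fold change of 1.51 (SE 0.17, adjusted p = 4.69e-07). Slc36a2, an amino acid transporter of brown and beige adipocytes, rose by 0.75, Pank1, of coenzyme A synthesis, by 0.87, and Ppara, the nuclear receptor for fatty acid oxidation, by 1.00. Ucp1, the uncoupling protein, had 0.931, 0.674, 0.705 and 0.621 CPM in KO against 0.889, 0.476, 0.701 and 1.11 CPM in WT. These overlapped, and the log2 fold change was -0.11 with an SE of 0.50 (adjusted p = 0.886), so a change of Ucp1 was not detectable at this level. The other 3 that did not pass were the elongase gene Elovl3 at 0.56 (adjusted p = 0.129, and 0.0427 without WT3), the brown fat regulator Prdm16 at 0.02 (adjusted p = 0.928) and the fatty acid binding protein gene Fabp3 at 0.23 (adjusted p = 0.787).

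**Figure D3:**
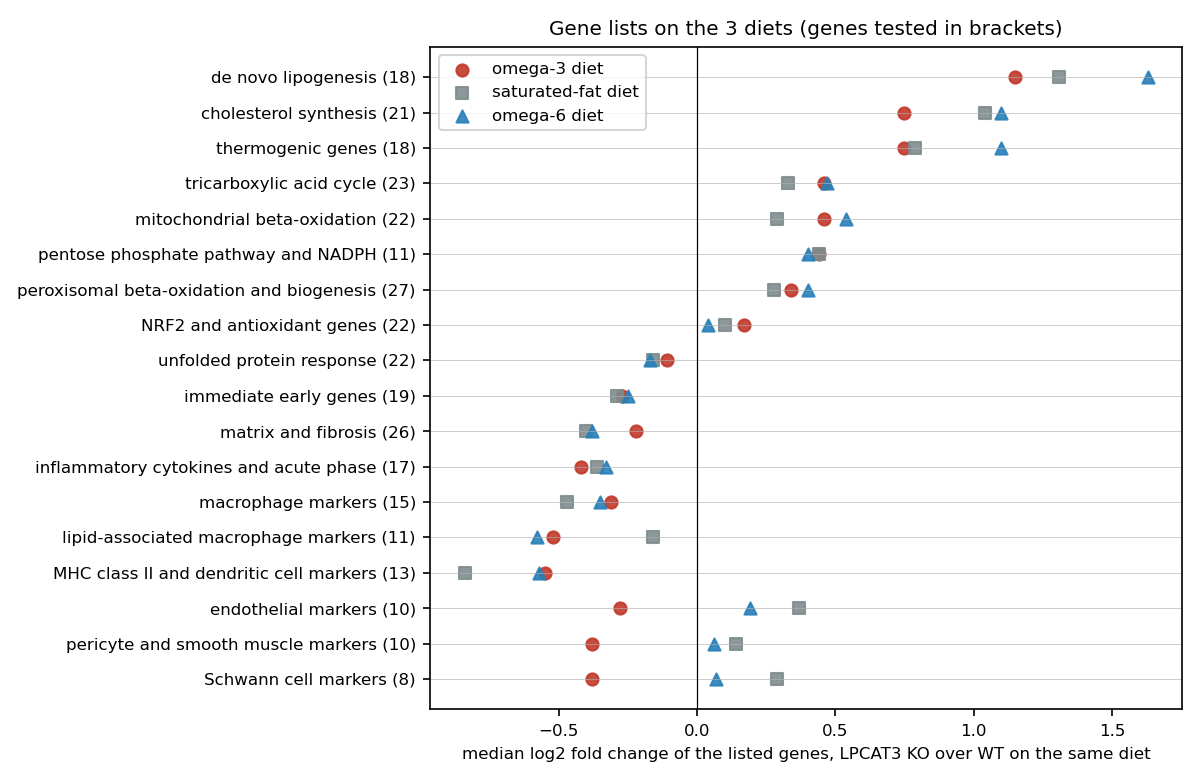
Median log2 fold change of KO over WT in 18 gene lists on the n3, SFA and n6 diets, 1 point per list and diet, with the number of genes tested in brackets. De novo lipogenesis lies furthest right on all 3 diets, followed by cholesterol synthesis and thermogenic genes (both 0.75 on n3), and the endothelial, mural and Schwann lists lie left of 0 on n3 and right of 0 on the other diets.

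Secreted adipocyte proteins divided into rises and falls. Of 19 genes, 5 were higher and 6 lower, against 20.1% and 18.7% of all genes. Rbp4, the retinol carrier, had 452, 469, 481 and 419 CPM in KO libraries, against 220, 211, 187 and 206 CPM in WT libraries, a rise of 1.14 (SE 0.081, adjusted p = 3.95e-10). Retn and Nampt rose by 0.63 and 0.45. Lep, which encodes leptin and follows fat cell size, had 2973, 2862, 3398 and 2518 CPM in KO against 3562, 4418, 3797 and 3659 CPM in WT. The fall of Lep by 0.39 (SE 0.076, adjusted p = 0.00029) was smaller than on the other diets by 0.42 (adjusted p = 0.0113). Sfrp5, a secreted Wnt inhibitor, fell by 0.94, and Adipoq, the gene for adiponectin, by 0.25 with overlapping groups (adjusted p = 0.0152, and 0.0598 without KO4).

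In the oxylipin and omega-3 signalling list, 3 of 18 genes were higher and 4 lower, near the share of all genes. Ephx2, the soluble epoxide hydrolase that breaks down epoxides of omega-3 and omega-6 fatty acids, had 483, 570, 694 and 463 CPM in KO libraries, against 268, 299, 294 and 282 CPM in WT libraries. It rose by 0.95 (SE 0.11, adjusted p = 3.82e-07), while Ephx1, the microsomal hydrolase, fell by 0.35. The 5-lipoxygenase partner gene Alox5ap fell by 0.41. Ffar4, the omega-3 fatty acid receptor GPR120, had 17, 15.9, 17.4 and 12.8 CPM in KO against 13.2, 11.3, 12.8 and 11.7 CPM in WT. Its groups overlapped at KO4, and its rise of 0.36 (SE 0.13, adjusted p = 0.0373) lost the call without KO1, KO2, KO3, WT2, WT3 or WT4, with adjusted p of 0.061 to 0.114.

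Antioxidant genes were mostly higher, with the glutathione peroxidases split. Of 22 genes, 13 were higher and 4 lower, against 20.1% and 18.7% of all genes, so the lower count was near the share of all genes. The median was 0.17, or -0.04 on TPM without rescaling, and 8 were higher without WT3. Cat, the peroxisomal catalase, rose by 0.66 (adjusted p = 9.71e-09) and Gclm, of glutathione synthesis, by 0.45 (adjusted p = 1.58e-08). Gpx3, the secreted peroxidase, had 130, 124, 117 and 117 CPM in KO libraries, against 159, 178, 156 and 162 CPM in WT libraries, and Gpx1, the cytosolic one, had 263, 284, 296 and 218 CPM in KO against 296, 361, 300 and 318 CPM in WT. Gpx3 fell by 0.43 and Gpx1 by 0.27. Both falls were smaller on n3 than on the other diets, by 0.38 for Gpx3 (adjusted p = 0.0293) and 0.46 for Gpx1 (adjusted p = 0.0155). Gpx1 lost its call on n3 without KO4 or WT2 (adjusted p of 0.0561 to 0.0714). In this list the difference was positive and called for 5 genes, Prdx3, Prdx6, Gpx1, Gpx3 and Gstm1, and for none in the other direction, by edgeR at an unadjusted p under 0.05 and by DESeq2 as well. That count was 8 without KO4, 3 without KO2, 2 without KO1, KO3, WT1 or WT4, and 1 without WT3. Without single libraries the adjusted p for Gpx3 reached 0.0889, its call being lost without KO1, KO2, KO3, WT1, WT3 or WT4, and the call for Gpx1 was lost without WT3 (adjusted p = 0.051).

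Ferroptosis, a death by peroxidation of polyunsaturated phospholipids, uses LPCAT3 and Acsl4 to make its substrates and Gpx4 to remove them. Of 14 ferroptosis genes, 6 were higher and 2, Lpcat3 and Gch1, lower, against 20.1% and 18.7% of all genes. The lower count was 1, the targeted gene Lpcat3, without KO2, KO3, WT3 or WT4. Acsl4 rose by 0.22 (adjusted p = 0.00541), Aifm2, a coenzyme Q reductase that stops lipid peroxidation, by 0.23 and Tfrc, the transferrin receptor, by 0.46. Gpx4 had 375, 378, 447 and 331 CPM in KO libraries, against 318, 361, 323 and 331 CPM in WT libraries, so the groups overlapped. Its rise of 0.20 (adjusted p = 0.0362) lost its call without KO1, KO2, KO3, WT1, WT3 or WT4, with adjusted p of 0.0513 to 0.209, and on TPM without rescaling Gpx4 stood at -0.04 and Acsl4 at -0.02. In the unfolded protein response, 2 of 22 genes were higher and 9 lower, against 20.1% and 18.7% of all genes. The disulfide isomerase gene Pdia4 gave -0.39 and the chaperone gene Dnajb9 gave 0.33.

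In 5 lists of immune, matrix and immediate early genes, every called gene was lower in KO. Of all genes, 18.7% were lower and 20.1% higher. Of 17 inflammatory genes, 10 were lower and none higher (median -0.42), of 15 macrophage markers 7 and none (median -0.31), of 13 MHC class II and dendritic cell markers 8 and none (median -0.55), of 26 matrix genes 12 and none (median -0.22), and of 19 immediate early genes 11 and none (median -0.27). Higher genes at an unadjusted p under 0.05 by edgeR were 1 in the inflammatory list and 0 in the other 4 lists, and DESeq2 called 0 in all 5. Hp, haptoglobin, had 2164, 2118, 2134 and 2026 CPM in KO libraries, against 4198, 4390, 4003 and 3903 CPM in WT libraries. Cd74, the MHC class II invariant chain, had 408, 416, 372 and 379 CPM in KO against 514, 615, 599 and 628 CPM in WT. Both were separated between the groups, with falls of 0.97 for Hp (adjusted p = 4.04e-07) and 0.58 for Cd74 (adjusted p = 0.000297). Ccl2, the chemokine that draws monocytes, fell by 1.07, Mpeg1, a pore protein of phagocytes, by 0.77, and H2-Ab1, an MHC class II chain, by 0.58. The matrix genes Sparc and Col4a2 fell by 0.29 and 0.31, and the early genes Atf3 and Klf6 by 0.83 and 0.40. None of 20 interferon-stimulated genes was called by edgeR or DESeq2 on n3, and 0 had an unadjusted p under 0.05 by edgeR. Of 13 T and NK cell markers, 4 were lower (2 without KO1, KO3, KO4, WT2 or WT4), against 18.7% of all genes. Only 1, the T cell receptor alpha constant gene Trac, was higher, against 20.1% of all genes. Trac had 28.7, 23.8, 22.9 and 28.8 CPM in KO libraries, against 9.85, 8.84, 8.61 and 8.99 CPM in WT libraries, without overlap. It rose by 1.52 on n3 (SE 0.15, adjusted p = 1.19e-07), by 1.79 on SFA and by 2.02 on n6, while the T cell chain genes Cd3d, Cd3e and Cd3g gave -0.11, -0.04 and -0.0016 on n3 (adjusted p of 0.827, 0.933 and 0.998).

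**Figure D4:**
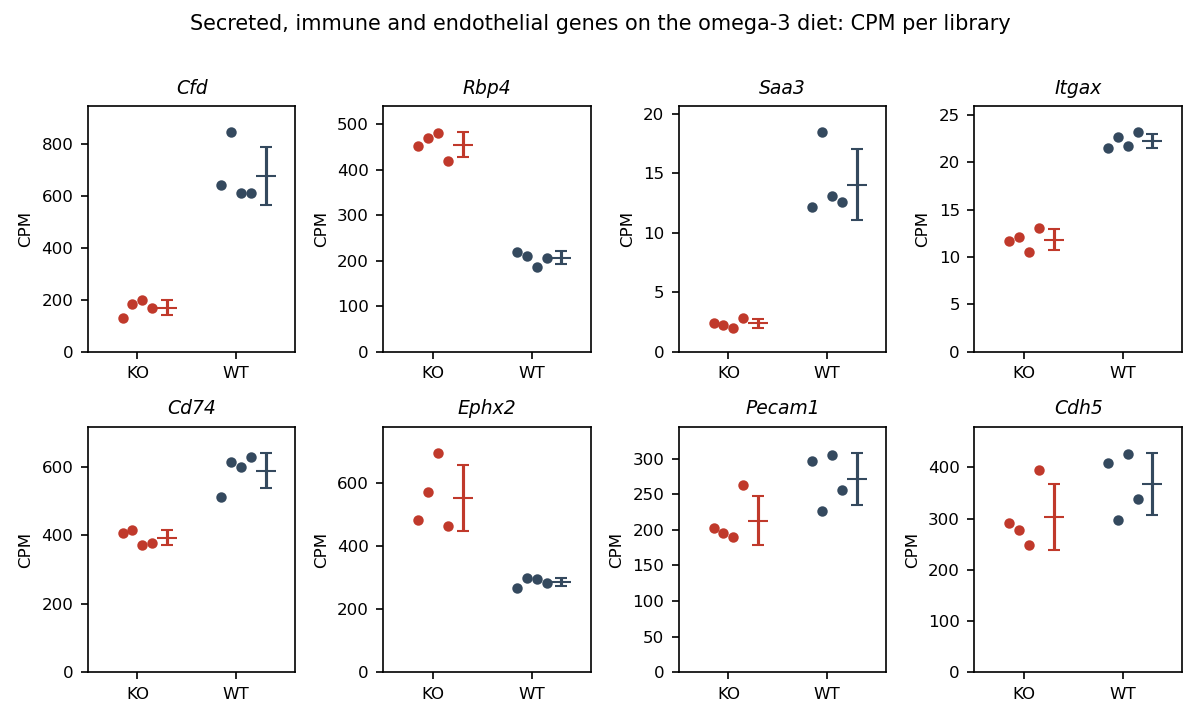
CPM in each of the 4 KO and 4 WT libraries on the n3 diet for secreted, immune, epoxide hydrolase and endothelial genes, 1 point per library, with the mean and SD as bars. Rbp4 and Ephx2 are higher and Cfd, Saa3, Itgax and Cd74 lower in every KO library, while Pecam1 and Cdh5 overlap, with KO4 highest among the KO libraries.

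The list of lipid-associated macrophage markers, for cells that surround dying adipocytes, held 8 lower and 3 higher genes of 11 (median -0.52). Of all genes, 18.7% were lower and 20.1% higher. The 3 that rose, Lpl, Ctsd and Fabp5, include genes that adipocytes also express, and the cells behind the rises and the falls were not tested. The 8 were 5 without KO2 or KO3 and 4 without WT4. Itgax, the integrin CD11c, had 11.6, 12.1, 10.5 and 13.1 CPM in KO libraries, against 21.5, 22.6, 21.7 and 23.1 CPM in WT libraries. Trem2, the lipid receptor of these cells, had 9.99, 8.58, 6.71 and 8.60 CPM in KO against 12.7, 15, 14.8 and 17.3 CPM in WT. Neither overlapped, and the falls were 0.91 (adjusted p = 6.86e-05) and 0.82 (adjusted p = 0.011). Gpnmb, a lysosomal glycoprotein, fell by 0.71 (adjusted p = 0.0175), with 0.0621 without KO3 and 0.0674 without WT4.

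The median of the vascular markers was below 0 on n3 and above 0 on the other diets. This was not particular to them. Medians on n3, SFA and n6 were -0.06, 0.18 and 0.43 for 20 interferon-stimulated genes and -0.1, 0.08 and 0.47 for 6 erythroid markers. For 12 muscle markers they were -0.1, 1.58 and 1.98. The difference was negative for 20, 6 and 11 of these, and called as negative for 3, 1 and 0. All 13 T and NK and all 10 B cell markers also had negative differences, with 0 called. Of 10 endothelial markers, Pecam1, Tek, Erg and Vwf were lower in KO on n3 and none was higher, against 18.7% and 20.1% of all genes. The higher count was also 0 by edgeR at an unadjusted p under 0.05 and by DESeq2. Their median was -0.28, beside medians of 0.37 on SFA and 0.19 on n6. The difference between n3 and the other diets was negative for all 10 and called for 7, against 3.5% of all genes, with a median of -0.56. Vwf, von Willebrand factor, was -0.41 on n3 (adjusted p = 0.00593), 0.19 on SFA and -0.19 on n6, a difference of -0.41 that was not called (adjusted p = 0.071). Pecam1, the junction protein CD31, had 203, 196, 190 and 263 CPM in KO libraries, against 296, 227, 305 and 256 CPM in WT libraries. Cdh5, VE-cadherin, had 292, 278, 248 and 395 CPM in KO against 408, 297, 426 and 338 CPM in WT. KO4 was the highest KO library and WT2 the lowest WT library for both, and the groups overlapped. Pecam1 changed by -0.35 on n3 (adjusted p = 0.0146), beside 0.33 on SFA and 0.23 on n6, a difference of -0.63 (SE 0.13, adjusted p = 0.0101). For Cdh5 the n3 value was -0.28 (adjusted p = 0.106) and the difference -0.65 (adjusted p = 0.0242).

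The calls of the vascular genes depended on single libraries while their direction did not. The differences of Pecam1 and Erg, an endothelial transcription factor, were called whichever library was left out. Those of Cdh5, Kdr, Tek, Flt1 and Esam, which encode VE-cadherin, receptors of VEGF and angiopoietin and a junction protein, lost their calls without KO1, KO2, KO3, WT1 or WT3, with adjusted p of 0.0515 to 0.0849. The count of 7 was then 2, and it was also 2 without 4 SFA or n6 libraries in which muscle or B cell genes stood high. It was 10 without KO4 and 6 without WT4. On n3 alone the count of 4 was 2 without KO2, KO3 or WT3, 9 without KO4 and 7 without WT2. Pecam1 then lost its n3 call without KO2, KO3 or WT3 (adjusted p of 0.0502 to 0.0588) and Erg without KO1, KO2, KO3, WT1 or WT3 (adjusted p of 0.0545 to 0.0986). The 10 markers summed to 943 to 1405 CPM in KO and 1101 to 1494 CPM in WT.

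**Figure D5:**
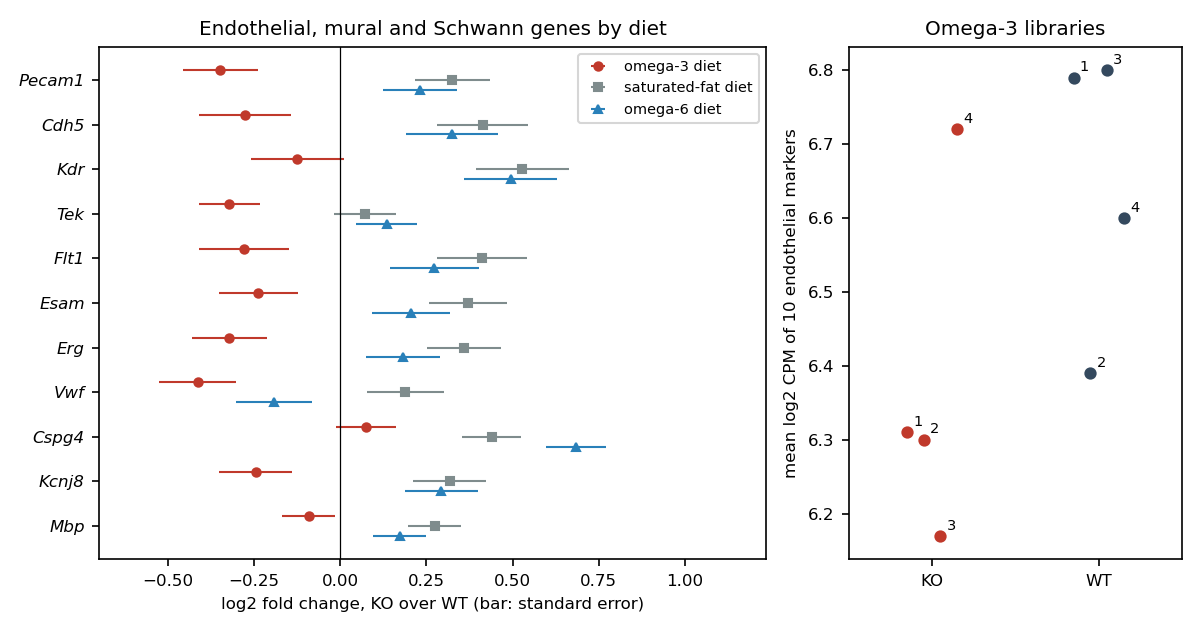
Left, log2 fold change of KO over WT with its SE on the n3, SFA and n6 diets for 11 endothelial, mural and Schwann genes; right, the mean log2 CPM of 10 endothelial markers in each n3 library. Most genes lie left of 0 on n3 and right of 0 on the other diets, and KO4 (6.72) lies within the range of WT libraries (6.39 to 6.80) while KO1 to KO3 (6.17 to 6.31) lie below it.

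The medians of mural and nerve-sheath markers were also below 0 on n3 and above 0 on the other diets, though not every member followed them. Of 10 pericyte and smooth muscle markers 6 were lower and none higher on n3, against 18.7% and 20.1% of all genes. Their median was -0.38, beside 0.14 on SFA and 0.06 on n6. By edgeR at an unadjusted p under 0.05, 1 was higher, and by DESeq2 0. The 6 were 3 without KO1 or WT3 and 2 without KO3. The difference was called for 2, Cspg4 and Kcnj8, and for 7 without KO4, 4 without WT2, and 1 without KO1 or WT3. Cspg4, the pericyte proteoglycan NG2, had log2 fold changes of 0.07 on n3 (adjusted p = 0.527), 0.44 on SFA and 0.68 on n6, a difference of -0.49 (adjusted p = 0.0113). Acta2, smooth muscle actin, fell on every diet, by 0.90 on n3 (adjusted p = 7.39e-07), 1.17 on SFA and 1.16 on n6, a difference of 0.26 that was not called (adjusted p = 0.214). Of 8 Schwann cell markers 3 were lower and 1 higher on n3, against 18.7% and 20.1% of all genes. Their median was -0.38, beside 0.29 on SFA and 0.07 on n6. The difference was called for 2 of the 8, and for 1 without KO1, KO2, KO3, WT1, WT3 or WT4. Mbp, a myelin protein gene, had 73.2, 66.4, 62.6 and 74.7 CPM in KO libraries, against 77.7, 64.2, 82.1 and 70.9 CPM in WT libraries, so the groups overlapped. Its log2 fold changes of -0.09 on n3 (adjusted p = 0.366), 0.27 on SFA and 0.17 on n6 gave a difference of -0.31 (SE 0.094, adjusted p = 0.0479), which lost its call without each of those 6 libraries (adjusted p of 0.0605 to 0.128). S100b, a calcium binding protein of Schwann cells that adipocytes also express, fell by 0.91 on n3 (adjusted p = 5.74e-07), 1.19 on SFA and 0.85 on n6, a difference of 0.10 (adjusted p = 0.667).

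Over all genes, the called differences between n3 and the other diets were of 3 kinds. In 334 of 959 genes the KO change was smaller on n3 in the same direction, in 60 it was larger in the same direction, and in 565 the fitted value had the opposite sign. These signs were taken whether or not the n3 change was called, so an opposite sign need not be a reversal. Sar1a, for example, gave 0.02 on n3 (adjusted p = 0.668), beside -0.19 on SFA and -0.31 on n6. On n3 itself 484 of the 959 were also called. The count was sensitive to KO4 and WT2, being 2528 without KO4 and 1244 without WT2, and it was 350 to 552 without any of the other 6 libraries. Among the 10 genes with the smallest p on the positive side, Wfdc21, a secreted whey acidic protein, had 13.9, 12.5, 13.1 and 12.7 CPM in KO against 21.8, 25.3, 25 and 20.6 CPM in WT. It fell by 0.83 on n3, beside -1.62 on SFA and -1.78 on n6. Cfb, complement factor B, had 213, 215, 194 and 203 CPM in KO against 378, 460, 432 and 415 CPM in WT, a fall of 1.03 on n3 beside -1.52 on SFA and -1.48 on n6. On the negative side Parm1, a mucin-like membrane protein, had 191, 183, 178 and 190 CPM in KO against 67.3, 56.0, 62.9 and 60.3 CPM in WT, a rise of 1.59 on n3 beside 2.24 on SFA and 2.80 on n6. Cldn15, a claudin of tight junctions, had -0.26 on n3 (adjusted p = 0.000306), 0.16 on SFA and 0.20 on n6, each called. In Wfdc21, Cfb and Parm1 the n3 change thus had the sign of the other diets and a smaller size, and in Cldn15 the opposite sign.

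Markers of other tissues were mostly level or low, and the list of mammary epithelium markers was the exception. Of its 14 markers, 9 passed the count filter, and 6 of these were higher, against 20.1% of all genes. The median log2 fold change of the 9 was 2.99. Their mean log2 CPM was -0.17 in KO and -3.02 in WT. Markers near 0 in WT, such as Krt8, can pass the filter through KO alone, so the count and median carry no weight as a test. The mice were males, Csn2 and Wap stood at 0 in all 8 libraries, and the source of these transcripts was not tested. The count of 6 was 2 without KO3 or without WT3. Krt8, a keratin of this epithelium, had 0.295, 0.698, 1.32 and 0.421 CPM in KO libraries, against 0.0152 CPM in WT3 and 0 in the other WT libraries. Trf, transferrin, which adipose tissue also expresses, had 3187, 3698, 3095 and 3119 CPM in KO against 2308, 2086, 1940 and 2242 CPM in WT. No gene was called by edgeR or DESeq2 on n3 among 10 B cell, 7 mast cell, 6 lymphatic, 6 erythroid and 2 mesothelial markers, 0 of which had an unadjusted p under 0.05 by edgeR, and 1 of 12 muscle markers was higher. Of 19 clock genes, 4 were higher and 4 lower, near the shares of all genes (20.1% and 18.7%): Nfil3 rose by 0.88 and Rora by 0.46, and Hlf, a proline and acidic rich factor under clock control, fell by 0.81. The labels give no time of collection, and the part of the hour in these values was not tested.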

How the data were processed

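The authors deposited, for 24 libraries, a table of estimated counts per gene and a table of TPM, both from Salmon, with 35727 genes each. Per the submitters' processing notes, trimming used fastp 0.23.2 and the build was mm10. The Salmon version and annotation are not stated in the sources read. Per the labels' protocols, the libraries were poly-A selected. Estimated counts were rounded, and filterByExpr (minimum count 10, total 15) left 15259 genes. Tests were quasi-likelihood F tests in edgeR 4.0.16 (R 4.3.3) fitted to all 24 libraries after TMM scaling, with a coefficient for each of 6 groups (18 residual degrees of freedom). P-values were adjusted by Benjamini-Hochberg over the whole table and called at 0.05. Levels are CPM from TMM-scaled counts, and their precision is that of 4 libraries a group. The difference between diets is the KO minus WT log2 fold change on n3 less the mean of those on SFA and n6.

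Named genes are Lpcat3, the 15 largest called rises and falls with mean log2 CPM of at least 1 and no overlap (predicted genes and receptor segments left out), the 10 smallest p of the difference in each direction, and members of gene lists, some of them chosen after their values were seen. The members and lists were chosen with earlier results of these data known, so list counts are descriptions. The promoter rule was to show TCACNCCAC matches among the cholesterol genes with the smallest p, with 1 gene without a match. Alternatives were DESeq2 1.42.0, RLE scaling, no filter, only the n3 libraries, a replicate block, limma 3.58.1 on log2(TPM + 1) or log2(TPM + 0.1), each library left out and, added after seeing the data, 4 libraries of other diets left out. A few named genes are not reported here. The scripts were tested on simulated data. Gene positions are from GENCODE M21, matched by name. Same-numbered libraries did not deviate together, so the numbers were not used as pairs.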

Additional observations from a re-analysis of the deposited data

Results flagged for a closer look

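Among 292 groups of 4 libraries checked for the 146 named genes, 13 held a library apart from the other 3, its gap to the nearest passing Dixon's 95% critical value. Chance gives about 1 in 20 groups. KO3 was the library for 6 of the genes, at 10.04 CPM for Mup19, 8.53 CPM for Mup11, 562 CPM for Nabp1, 5.46 CPM for Folh1, 15.6 CPM for Nfil3 and 2.32 CPM for Ccl2. KO4 was high for Esam at 94.3 CPM and low for Rora at 135 CPM. KO2 was high for Trf at 3698 CPM. In WT, WT2 was high for Cfd at 847 CPM and for Saa3 at 18.4 CPM, WT4 was low for Lss at 90.3 CPM, and WT3 was the only WT library with Krt8 counts, at 0.0152 CPM.

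The KO change on n3 differed from the mean of those on SFA and n6, by a test of the difference itself, in 58 of the 146 named genes. Of all genes, 6.28% were called. The named genes include the 10 with the smallest p of this difference in each direction, and others chosen after their values were seen. The count of 58 is thus partly set by the choice of genes. The values are log2 differences, negative where the change was more negative on n3. In phospholipid and fatty acid synthesis they were Lpcat3 at -0.41, Mboat2 at -0.65, Agpat2 at -0.38, Acacb at -0.48, Acly at -0.29, Fasn at -0.31, Scd2 at -0.37, Acss2 at -0.64, Me1 at -0.44, Elovl6 at -0.38 and Acsl3 at -0.54. In the sterol genes they were Nsdhl at -0.38, Lss at -0.50, Fdps at -0.36, Insig1 at -0.53 and Mylip at -0.55. In vascular, mural and Schwann genes they were Pecam1 at -0.63, Cdh5 at -0.65, Kdr at -0.64, Tek at -0.43, Flt1 at -0.62, Esam at -0.53, Erg at -0.59, Cspg4 at -0.49 and Mbp at -0.31.

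In secreted, immune and antioxidant genes they were Lep at 0.42, Cfd at 1.02, Saa3 at 1.54, Cfb at 0.47, Wfdc21 at 0.87, Gpx1 at 0.46, Gpx3 at 0.38, Gstm1 at 0.37 and Gss at 0.40. Gss is glutathione synthetase. Among the largest rises and falls they were Tmem56 at -1.56, Prune2 at -0.77, Mup19 at 1.52, Hebp2 at -0.94, Egln3 at -0.68, Hephl1 at -0.77, Chchd10 at -0.61 and Folh1 at 1.01. The other genes with the smallest p on the positive side were Sardh at 0.40, Gtf3a at 0.33, Rab29 at 0.49, Sar1a at 0.27, Efemp1 at 0.49, Gins2 at 0.60 and Sdc2 at 0.31. On the negative side they were Cldn15 at -0.44, Cd300lg at -0.64, Unc45b at -0.65, Fam171a1 at -0.37, Pdgfd at -0.42, Cyp4b1 at -0.68, Mecom at -0.69, Kcnc2 at -0.83 and Parm1 at -0.93. Cd300lg, a receptor of capillary endothelium, had 172, 174, 191 and 230 CPM in KO libraries, against 228, 190, 234 and 219 CPM in WT libraries.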

How the results depend on the processing

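Of the 146 named genes, 112 kept their direction and their side of the threshold on n3 under every alternative, and of 58 called differences 35 did. The n3 count of 5924 genes (3065 higher, 2859 lower) was 4756 to 6629 with single libraries left out (higher 2486 to 3390, lower 2189 to 3239), 6075 by DESeq2 and 5892 with a replicate block. TPM without rescaling gave 8423 genes (919 higher, 7504 lower) with a pseudocount of 1, 8475 (925 and 7550) with 0.1, and 7958 (902 and 7056) with no filter. On these 3 scales Acsl4 stood at -0.02, -0.03 and -0.02, and Gpx4 at -0.04 in each. Gtf3a stood at -0.04, -0.05 and -0.04, and Sar1a at -0.22 in each. The median gene stood at -0.19, -0.24 and -0.19, and its part in these values was not tested. Lpcat3 was -0.14 on TMM-rescaled TPM, and the cause was not tested.

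The difference count of 959 (425 and 534) was 1620 by DESeq2 (782 and 838), 631 with no filter (210 higher), 545 (245 and 300) and 549 (256 and 293) on TPM plus 0.1 and plus 1, 361 (201 and 160) on TPM with no filter, 671 on rescaled TPM and 469 (197 and 272) without 4 SFA or n6 libraries in which muscle or B cell genes stood high. Leaving out single libraries gave 350 to 2528 (116 to 1320 and 229 to 1208), and the causes were not tested. Same-numbered libraries had deviation correlations of -0.07 to 0.01, and the block gave 892 differences (378 and 514). With 4 libraries a group, small changes of genes near 1 CPM such as Ucp1 could not be resolved.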

Other observations

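The processed pseudogene Gm7049 (chr13:62813076-62814787 on mm10), chosen after its values were seen, had 116, 118, 124 and 108 CPM in KO libraries, against 0.0725, 0.171, 0.0153 and 0.155 CPM in WT libraries. The same gene separated the genotypes on SFA and n6, with fitted log2 fold changes of 10.3 and 9.50. A pseudogene can take reads from its parent gene, and this was not tested.

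Lars2, mitochondrial leucyl-tRNA synthetase, had 2217, 1051, 2130 and 1329 CPM in KO libraries, against 219, 235, 648 and 1005 CPM in WT libraries, and varied widely within both groups. Alb, the liver plasma protein albumin, had 8.90, 8.70, 27.6 and 9.46 CPM in KO against 6.98, 7.89, 7.03 and 7.24 CPM in WT. It was highest in KO3, the library that was also highest for Mup19 and Mup11, and its log2 fold change of 0.91 was not called (adjusted p = 0.081). Lars2 and Alb were also chosen after their values were seen.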
